A study of Mus musculus with 24 samples.

Results

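Surfactant is made and recycled at the alveolar surface of the lung, and 10 genes of that surface were followed here: Sftpa1, Sftpb, Sftpc, Sftpd, Abca3, Napsa, Lamp3, Ager, Hopx and Aqp5. They were taken by symbol from the 54658 rows of both deposited count tables, and all 10 were present in both tables. The rule uses gene names alone, but the names were listed with earlier results of these data known. RNA was sequenced from 24 samples of male C57BL/6 mice aged 7 to 12 weeks. The lungs and hearts came from the same animals, 3 given β-NMN and 3 given saline (0.9% NaCl, called vehicle), after cecal ligation and puncture (CLP), a surgical model of polymicrobial sepsis. β-NMN, β-nicotinamide mononucleotide, is a precursor of the coenzyme NAD+ and was injected intraperitoneally at 185 mg/kg, and the organs were taken 24 h after the last dose. The other 12 samples were peritoneal cells, 6 from β-NMN-treated and 6 from vehicle-treated mice with a sterile peritonitis induced by thioglycollate (TGC), and these cells were stimulated in culture with E. coli for 6 h. Every mouse had a peritonitis, and uninjured lungs were not analysed here, so each β-NMN comparison below is between treated and untreated animals with the same injury. One label field of the organ samples names thioglycollate, whereas their titles and tissue fields name CLP, which was followed.

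A pair of epithelial cell types covers the alveolus. Cuboidal type II (AT2) cells synthesise surfactant, store it in lamellar bodies and secrete it, and the thin, flat type I (AT1) cells form the surface for gas exchange. Surfactant is mostly phospholipid, and its proteins divide by role. SP-B and SP-C, encoded by Sftpb and Sftpc, are small hydrophobic proteins that help lipid spread at the air-liquid surface, whereas SP-A and SP-D, encoded by Sftpa1 and Sftpd, are collectins, soluble lectins that bind microbes. Abca3 encodes the transporter that carries phospholipid into lamellar bodies, Napsa encodes an aspartic protease that takes part in the maturation of SP-B, and Lamp3 encodes a membrane glycoprotein of lamellar bodies that is also found in mature dendritic cells. Ager, the receptor for advanced glycation end products, the homeodomain-only protein gene Hopx and the water channel gene Aqp5 are the AT1 genes among the 10, and Hopx is also active in heart muscle. Injury to this epithelium and loss of surfactant function are well-known features of acute lung injury in sepsis.

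The members are spread over 7 chromosomes of the mm10 assembly, all as protein-coding genes. Sftpa1 (chromosome 14, 41131782 to 41136452, plus strand) and Sftpd (chromosome 14, 41172214 to 41185149, minus strand) lie 35761 bp apart, with another collectin gene, Mbl1, and a processed pseudogene, Gm7920, between them. Sftpc is further along the same chromosome, at 70520949 to 70524081 on the minus strand. Abca3 and Ager are both on chromosome 17. Abca3, Napsa and Hopx each share bases with a non-coding gene on the opposite strand, D330041H03Rik and Gm25618 for Abca3, Gm15396 for Napsa and Hopxos for Hopx. No source at hand states whether counting used the strand, and in overlapping exons the reads of these 3 members and of their antisense partners cannot be told apart.

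Promoter sequences from RefSeq (GRCm38.p6, 250 bases before to 50 bases after the start site) were matched by symbol for 7 of the 10 members. Sftpc, Sftpd and Napsa had no entry. Short motifs of factors known from surfactant genes were searched on both strands by their exact letters: CTCAAG, the core bound by NKX2-1, the factor that specifies lung epithelium, and the forkhead motif, read as TGTTTAC or as TGTTTGC. These motifs do not overlap each other. The first was found in the promoters of Sftpa1, Sftpb and Hopx, beside 15.9% of all 32851 promoters in the table, and the second in those of Sftpb and Lamp3, beside 8.48% of them. The C/EBP motif TTGCNNAA was in none of the 7, beside 10.8% of all promoters, and TATAAA was in that of Sftpa1, beside 13.6%. Shown here are 2 surfactant protein genes that hold the NKX2-1 letters, Lamp3, the member that differed most between the lung groups, and Abca3, the member that varied most between vehicle lungs. Capitals mark the NKX2-1 and forkhead letters on either strand.
Sftpa1: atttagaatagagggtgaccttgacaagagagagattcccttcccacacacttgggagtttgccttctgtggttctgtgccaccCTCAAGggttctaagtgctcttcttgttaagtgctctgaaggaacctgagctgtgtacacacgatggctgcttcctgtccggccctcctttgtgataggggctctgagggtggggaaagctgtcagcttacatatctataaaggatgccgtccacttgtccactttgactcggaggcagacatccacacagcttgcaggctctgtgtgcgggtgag
Sftpb: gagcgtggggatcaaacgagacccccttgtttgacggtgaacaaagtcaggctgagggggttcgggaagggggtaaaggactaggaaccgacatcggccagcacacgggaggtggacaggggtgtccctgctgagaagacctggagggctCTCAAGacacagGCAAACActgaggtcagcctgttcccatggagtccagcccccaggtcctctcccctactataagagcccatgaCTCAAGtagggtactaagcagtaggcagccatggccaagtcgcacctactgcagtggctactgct
Lamp3: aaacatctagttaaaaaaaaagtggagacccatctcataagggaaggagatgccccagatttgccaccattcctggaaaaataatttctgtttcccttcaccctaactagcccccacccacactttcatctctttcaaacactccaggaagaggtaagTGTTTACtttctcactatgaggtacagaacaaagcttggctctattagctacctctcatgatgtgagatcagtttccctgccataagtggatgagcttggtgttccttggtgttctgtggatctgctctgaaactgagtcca
Abca3: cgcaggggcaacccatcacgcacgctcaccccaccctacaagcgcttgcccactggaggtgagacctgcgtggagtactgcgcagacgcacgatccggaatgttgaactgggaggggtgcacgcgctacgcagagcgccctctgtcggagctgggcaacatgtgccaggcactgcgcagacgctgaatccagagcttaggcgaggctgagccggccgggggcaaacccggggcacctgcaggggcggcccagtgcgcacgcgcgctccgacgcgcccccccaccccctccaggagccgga
The windows are chr14:41131538-41131837 on the plus strand for Sftpa1, chr6:72304360-72304659 on the plus strand for Sftpb, chr16:19706316-19706615 on the minus strand for Lamp3 and chr17:24351773-24352072 on the plus strand for Abca3. In Sftpb the NKX2-1 letters began 100 and 15 bases before the start site, with a forkhead motif between them, 88 bases before it. In Sftpa1 they began 166 bases before it, and in Lamp3 the forkhead motif began 92 bases before it. The Abca3 window held neither motif and was 69.7% G and C, against 43.7% for Lamp3. A match of so few letters is a description of the sequence and not a measured binding site.

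In the lungs the members took 2.83% to 4.95% of all counts of a library. They took 0.00879% to 0.0124% in the hearts and 0.00506% to 0.00766% in the peritoneal cells. The lung libraries held 8915366 to 28356786 counts, the hearts 27319513 to 68523239 and the peritoneal cells 31126823 to 112456050. The shallowest of them, vehicle lung 2, stood apart from the other 5 lungs. Over the 17008 genes tested in lungs, its log2 level differed from the mean of the other lungs with an SD of 1.57 across genes, against SDs of 0.45 to 0.60 for the other 5. Genes other than protein-coding ones took 6.13% of its counts, against 1.55% to 4.72% in the others. Every log2 change in lungs is therefore given with and without that library. The labels were checked against defining markers: summed CPM (read counts of a gene normalised to library size, with TMM scaling) of 10 cardiac muscle genes were 40376 to 56317 in the hearts and 99.9 to 775 in the lungs, and Sftpc was 14019 CPM or more in every lung and 0.248 CPM or less in every heart.

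Levels of different genes were compared per kilobase of exon. In the lungs Sftpc stood far above the other members, at 17866 ± 6207 CPM per kb (SD, n = 6), and it was the highest member in each lung. Ager, the most abundant AT1 member, came next at 2166 ± 635 CPM per kb and did not differ from Sftpb, at 2040 ± 478, beyond their spread: Ager was the higher of the pair in 2 of the 6 lungs. Sftpa1 followed at 1111 ± 267, Hopx at 770 ± 317 and Sftpd at 729 ± 314 CPM per kb, and the last pair overlapped in the same way, with Hopx the higher in 4 of 6 lungs. The 4 members at the low end, Aqp5 at 118 ± 29.7, Napsa at 91.5 ± 25.3, Lamp3 at 73.7 ± 26.4 and Abca3 at 30.4 ± 16.3 CPM per kb, were each above the next in 5 or 6 of the 6 lungs.

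The first question was whether β-NMN changed these genes in septic lungs. Lamp3, the lamellar body membrane protein, was the 1 member whose β-NMN lungs all stood above the vehicle lungs. Normalised Lamp3 counts were 151, 174 and 197 CPM in the vehicle lungs and 380, 306 and 276 CPM in the β-NMN lungs, means of 174 ± 22.8 and 321 ± 53.8 CPM (SD, n = 3 each), 1.84-fold higher with β-NMN. The gap between the groups was wider than the range within vehicle lungs but narrower than the range within β-NMN lungs. Its log2 change was 0.88 ± 0.25 (SE), with an unadjusted p of 0.00977 in edgeR's quasi-likelihood test and a Benjamini-Hochberg adjusted p of 0.969 over all 17008 genes, so it did not pass the threshold of 0.05. The exact two-sided permutation test gave p = 0.1, the smallest that 3 against 3 allows. Without vehicle lung 2 the log2 change of Lamp3 was again 0.88 (SE 0.22, adjusted p = 0.991 by edgeR), and without both vehicle lung 2 and β-NMN lung 1 it was 0.74.

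Of the 10 members, 0 were called in the lungs by edgeR, 1 (Lamp3) had an unadjusted p below 0.05, and DESeq2 and limma-voom with quality weights each called 0 as well. Over all genes the background was equally low: 0% of the 17008 genes were called, 1.77% had an unadjusted p below 0.05, and 4.47% had all β-NMN lungs above all vehicle lungs. DESeq2 called 9 genes and limma-voom 7. The paper reported many genes that differed between these groups in lungs and in hearts. It too used edgeR's quasi-likelihood test and an adjusted p below 0.05, and why the counts differ was not tested. In bulk tissue, fewer cells of a type and less RNA per cell cannot be told apart, and this holds for every value below. The animals behind the 3 lungs of each group are separate mice by the labels.

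**Figure D1:**
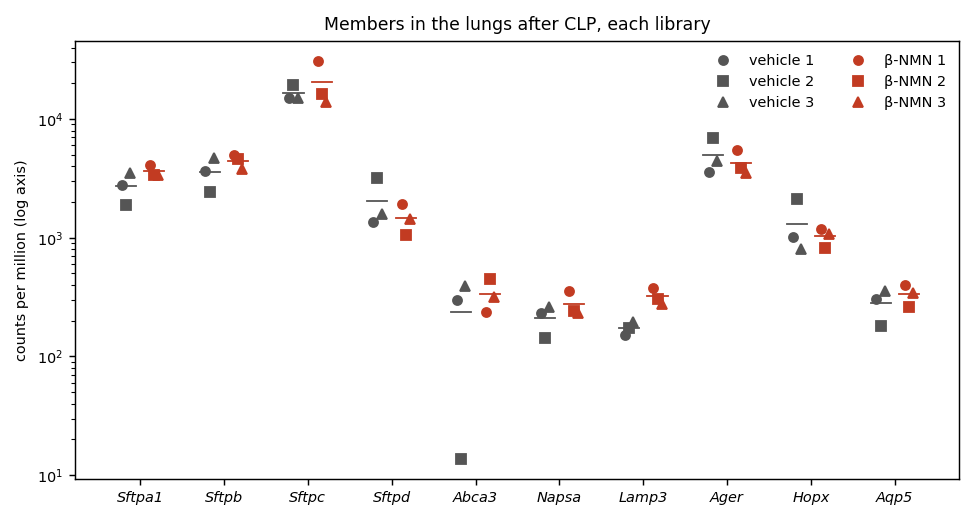
Normalised CPM (log axis) of the 10 members in each CLP lung, vehicle in grey and β-NMN in red, with symbols for the library number and lines for group means. The Lamp3 groups are separate, at 151 to 197 against 276 to 380 CPM, and vehicle lung 2 is the single low point of Abca3 at 13.7 CPM.

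Among the hydrophobic surfactant proteins, Sftpc was 15060, 19362 and 15079 CPM in the vehicle lungs and 31020, 16298 and 14019 CPM with β-NMN. A single library, β-NMN lung 1, was far above the rest, and the other 2 β-NMN lungs lay within or just below the vehicle range. The log2 change was 0.31 ± 0.42 (SE, edgeR adjusted p = 0.969), 0.44 ± 0.34 without vehicle lung 2 and -0.12 without β-NMN lung 1. Sftpb was 3626, 2438 and 4650 CPM in vehicle lungs and 5017, 4577 and 3776 CPM with β-NMN, a log2 change of 0.32 ± 0.35, or 0.11 ± 0.23 without vehicle lung 2. The Sftpb groups overlapped, with vehicle lung 2 the lowest of the 6.

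The collectins moved apart from each other in vehicle lung 2. Sftpa1 was 2780, 1882 and 3482 CPM in vehicle lungs and 4116, 3397 and 3403 CPM with β-NMN, with a log2 change of 0.42 ± 0.33 that became 0.22 ± 0.22 without vehicle lung 2. Sftpd, its neighbour on chromosome 14, was 1354, 3190 and 1598 CPM in vehicle lungs and 1937, 1046 and 1450 CPM with β-NMN. Its log2 change was -0.47 ± 0.43, and 0.0 ± 0.27 without vehicle lung 2. That library was thus the lowest of 6 for one collectin and the highest for the other.

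Of the members that handle surfactant, Abca3 varied most. It was 298, 13.7 and 393 CPM in vehicle lungs and 237, 450 and 320 CPM with β-NMN, and vehicle lung 2 held 95 Abca3 reads where the other lungs held 3897 to 11641. The log2 level of Abca3 in vehicle lung 2 minus the mean of the other lungs was -4.58, the 96th lowest deviation of 17008 genes in that library, while those of the other 9 members lay between -0.86 and 1.14. The log2 change of Abca3 with β-NMN was 0.51 ± 0.95 with all lungs and -0.04 ± 0.27 without that library. Napsa, the protease, was 233, 143 and 259 CPM in vehicle lungs and 353, 240 and 231 CPM with β-NMN, a log2 change of 0.38 ± 0.32, or 0.16 ± 0.23 without vehicle lung 2.

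The AT1 members showed no common shift. Ager was 3568, 6954 and 4412 CPM in vehicle lungs and 5521, 3884 and 3479 CPM with β-NMN, a log2 change of -0.21 ± 0.38 that was 0.11 ± 0.26 without vehicle lung 2. Hopx was 1014, 2099 and 807 CPM in vehicle lungs and 1191, 815 and 1077 CPM with β-NMN, with a log2 change of -0.35 ± 0.42, and 0.17 ± 0.23 without that library. For both genes vehicle lung 2 was the highest of the 6. The other vehicle lungs lay among the β-NMN lungs for Ager, and for Hopx vehicle lung 3 was the lowest of the 6. Aqp5 was 302, 182 and 356 CPM in vehicle lungs and 398, 260 and 341 CPM with β-NMN, and its log2 change of 0.25 ± 0.33 fell to 0.02 ± 0.23.

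**Figure D2:**
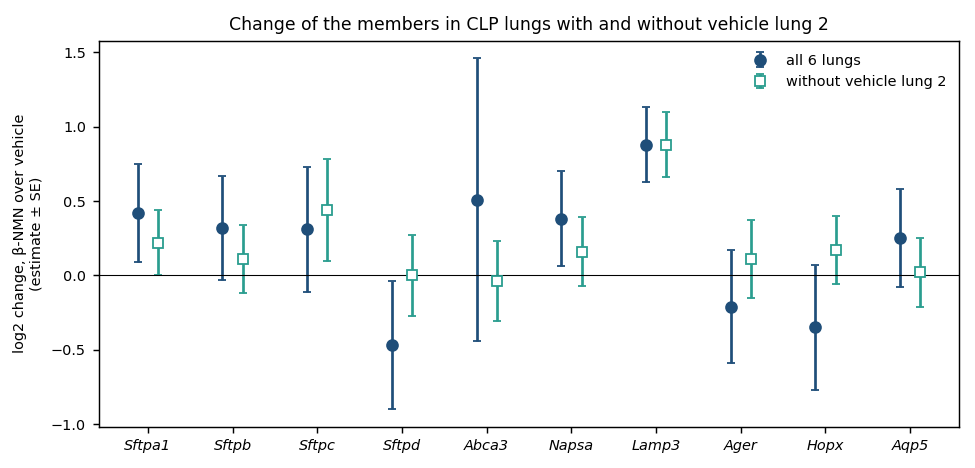
Log2 change of each member in CLP lungs, β-NMN over vehicle, with bars of 1 SE, from all 6 lungs (filled circles) and without vehicle lung 2 (open squares). Lamp3 is at 0.88 both ways, while Sftpd, Abca3, Ager and Hopx cross or reach 0.

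Vehicle lung 2 was the lowest of the 6 lungs for 5 members (Sftpa1, Sftpb, Abca3, Napsa, Aqp5) and the highest for 3 (Sftpd, Ager, Hopx), and β-NMN lung 1 was the highest for 6. With both of these libraries left out, the log2 changes of the 9 members other than Lamp3 lay between -0.24 and 0.15. Over all 10 members, 7 estimates were above 0 and the median was 0.31 with all lungs. Without vehicle lung 2, 9 were above 0 and the median was 0.13, but of these Sftpd was 0.0 when rounded and Aqp5 was 0.02. Over all genes tested, 50.1% were above 0 with a median of 0.0, and 53.8% without vehicle lung 2.

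Ratios between members of 1 library do not depend on how the library was scaled. The log2 ratio of Lamp3 to Sftpc was -6.64, -6.80 and -6.26 in vehicle lungs and -6.35, -5.74 and -5.67 with β-NMN, a difference of 0.65 with overlapping groups, and 0.53 without vehicle lung 2. The mean log2 count of the 3 AT1 members minus that of the 7 AT2 members was -0.12, 0.95 and -0.31 in vehicle lungs and -0.29, -0.54 and -0.23 with β-NMN. Vehicle lung 2 alone lay above 0. The difference between groups was -0.53 with it and -0.14 without it. These ratios are a description and were not tested.

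Other genes of the alveolar epithelium were read from lists. All 22 AT2 genes outside the members had a log2 change above 0 in the lungs, with a median of 0.41, and 20 of 22 without vehicle lung 2, with a median of 0.37. Of these 22, edgeR, DESeq2 and limma-voom each called 0, and 4 had an unadjusted p below 0.05 in edgeR. In 5 of them the β-NMN lungs were all above the vehicle lungs, beside 4.47% of all genes: Etv5, Hc, Cxcl15, Mlc1 and Il33, the last 3 named after their values were seen. Etv5, an ETS-family transcription factor of AT2 cells, was 72.2, 82.2 and 95.1 CPM in vehicle lungs and 140, 135 and 103 CPM with β-NMN, a log2 change of 0.60 ± 0.24 (edgeR unadjusted p = 0.0400, adjusted p = 0.969) that was 0.59 without vehicle lung 2. Hc, the gene of complement component C5, was 146, 79.2 and 195 CPM in vehicle lungs and 207, 420 and 236 CPM with β-NMN, a log2 change of 1.04 ± 0.43, or 0.75 without vehicle lung 2. Acoxl changed by 0.78 ± 0.32 on the log2 scale, or 0.64 without vehicle lung 2, with overlapping groups. The summed level of the 22 genes was 3656 to 5995 CPM in vehicle lungs and 5896 to 7080 CPM with β-NMN, with vehicle lung 2 the lowest. A rise of this size was not particular to AT2 genes with all lungs. A list of 10 endothelial genes had the same median of 0.41, or 0.16 without vehicle lung 2, and 3 genes with all β-NMN lungs above all vehicle lungs.

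The 20 AT1 genes outside the members had a median log2 change of 0.33, with 14 above 0, and of 0.16, with 17 above 0, without vehicle lung 2. Here 1 gene, Rtkn2, had all β-NMN lungs above all vehicle lungs, beside 4.47% of all genes, at 254, 116 and 261 CPM against 287, 390 and 269 CPM. Its log2 change was 0.58 ± 0.37, and 0.29 ± 0.21 without vehicle lung 2. Sema3a changed by 0.62 ± 0.40, or 0.33 without vehicle lung 2, and Igfbp2 by -0.90 ± 0.52, which was -0.15 without vehicle lung 2.

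Genes that make and recycle surfactant lipid lay on both sides of 0, 12 above and 10 below, with a median log2 change of 0.09, or 16 above and a median of 0.10 without vehicle lung 2. Elovl1, a fatty acid elongase, changed by 0.61 ± 0.34 on the log2 scale, and by 0.34 without that library. The elongase Elovl6 and the phosphatidate phosphatase Lpin1 changed by -1.64 ± 0.96 and -1.22 ± 0.72, and both values rested on vehicle lung 2: Elovl6 was 47.7 CPM there and 4.06 to 7.37 CPM in the other lungs, and Lpin1 was 361 CPM there and 57.5 to 91.1 CPM in the others. Without that library the changes were 0.43 and 0.15.

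The 15 alveolar transcription factors had a median log2 change of 0.0, with 8 above 0, or -0.04 with 7 above 0 without vehicle lung 2. In 2 of them every β-NMN lung lay below every vehicle lung, as held for 3.75% of all genes: Stat3 and, named after its values were seen, Foxa1. Stat3 was 224, 606 and 225 CPM in vehicle lungs and 188, 195 and 191 CPM with β-NMN, a log2 change of -0.88 ± 0.43 that was -0.23 ± 0.16 without vehicle lung 2. Foxa1, a forkhead factor of lung epithelium, changed by -0.49, and by -0.52 without that library. Klf2 changed by -0.71 ± 0.39, or -0.23 without vehicle lung 2, with overlapping groups. Among 12 genes of alveolar fluid and ion transport, 4 were above 0 and the median was -0.13, against 2 above 0 and -0.17 without vehicle lung 2. For Aqp4 and Slc12a2 every β-NMN lung lay below every vehicle lung, beside the same 3.75% of genes. Aqp4, a water channel at a low level, was 11.7, 10.6 and 9.11 CPM in vehicle lungs and 4.69, 5.06 and 8.18 CPM with β-NMN, a log2 change of -0.80 ± 0.32 that was -0.79 without vehicle lung 2. Slc12a2, a sodium, potassium and chloride cotransporter, changed by -0.85 ± 0.44 with all lungs and -0.19 ± 0.17 without vehicle lung 2, and Slc26a9, a chloride channel, by 0.49 ± 0.33 and 0.21.

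Genes of the damage-associated transitional epithelium, a state between AT2 and AT1 cells seen after injury, were mostly lower, 11 of 14, with a median log2 change of -0.40 that was -0.14, with 10 of 14 lower, without vehicle lung 2. Taken gene by gene, 0 of the 14 had separate groups, beside 3.75% of all genes with all β-NMN lungs below all vehicle lungs. The summed level of the 14 was 2969 to 4012 CPM in vehicle lungs and 1551 to 2742 CPM with β-NMN, without overlap. Lcn2, an iron-chelating protein that neutrophils also make, carried much of this sum, at 1481, 2240 and 1373 CPM in vehicle lungs and 841, 390 and 1397 CPM with β-NMN. Its log2 change was -0.95 ± 0.49, or -0.70 without vehicle lung 2. Itgb6, an integrin subunit, changed by -0.97 ± 0.45, or -0.43 without that library, and the tight junction gene Cldn4 by -1.11 ± 0.58, which was -0.17 without vehicle lung 2. In these last 5 lists edgeR, DESeq2 and limma-voom called 0 genes, and Etv5, also listed among the factors, and Aqp4 had an unadjusted p below 0.05 in edgeR.

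**Figure D3:**
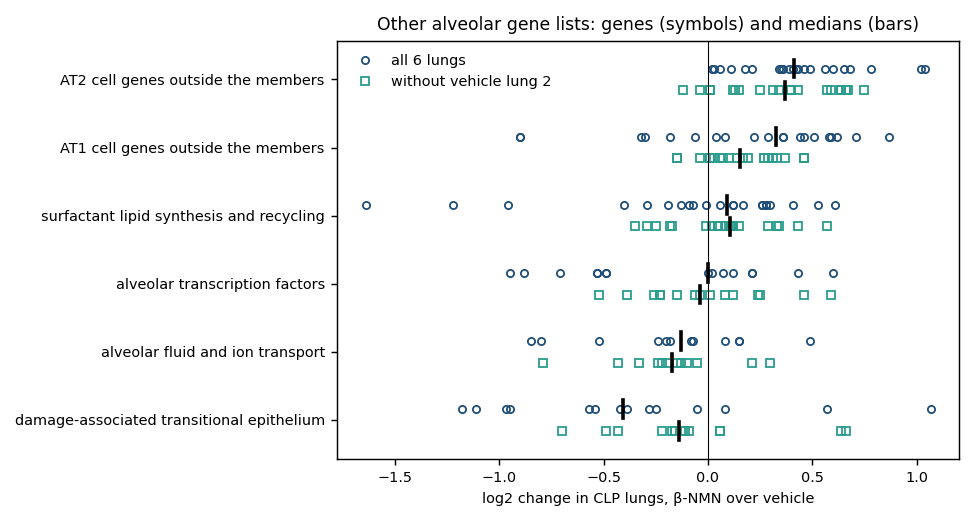
Log2 change in CLP lungs, β-NMN over vehicle, of each gene (symbols) of 6 alveolar lists, from all 6 lungs (circles) and without vehicle lung 2 (squares), with black bars for list medians. The AT2 list has a median of 0.41 with all lungs and 0.37 without vehicle lung 2, whereas the damage-associated list moves from -0.40 to -0.14.

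Because Lamp3 is also a gene of mature dendritic cells, a list of such genes was read beside it. Of its 9 genes tested in lungs, 4 were above 0 and 5 below, with a median log2 change of -0.07, and -0.04 without vehicle lung 2. Their summed level was 284 to 599 CPM in vehicle lungs and 243 to 338 CPM with β-NMN, none of the 10 listed genes was at 0 in all lungs, and the most abundant were Socs2, Relb and Cacnb3. Ccr7, the receptor that takes these cells to lymph nodes, averaged 4.43 CPM in lungs, with a log2 change of -0.60, or -0.52 without vehicle lung 2. Neutrophil genes summed to 1765 to 3077 CPM in vehicle lungs and 1695 to 2632 CPM with β-NMN. Of the 10 neutrophil genes, 8 were below 0 with a median log2 change of -0.07, and 9 with a median of -0.45 without vehicle lung 2. Cardiac muscle genes, which the muscle of the pulmonary veins also expresses, summed to 334 to 775 CPM in vehicle lungs and 99.9 to 324 CPM with β-NMN, without overlap. The source of these reads was not tested. The part of these other cells in the values above was not tested.

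The hearts of the same mice served as a tissue without alveoli. All 10 members were higher in lungs than in hearts and all passed the threshold, beside 35.9% of the 18318 genes tested that were called higher in lungs. Sftpa1, Sftpc, Sftpd, Lamp3 and Aqp5 did not pass the low-count filter in hearts and entered this fit only through the lungs. The outcome for these genes was in effect fixed in advance, so their calls only describe the organs. The largest log2 difference was that of Sftpc, 16.65 ± 0.64 (SE, n = 6 lungs and 6 hearts, edgeR adjusted p = 3.21e-09), and the smallest those of Abca3, 2.65 ± 0.56 (edgeR adjusted p = 0.00140), and Hopx, 3.40 ± 0.23. The other 7 ranged from 7.82 for Napsa to 15.75 for Sftpd. With the mouse as a block the adjusted p of Abca3 was 0.0193 and all 10 calls held. Fitted differences of genes with almost no heart reads depend on the prior count added in the fit: Lamp3 had 4 reads in all 6 hearts together and Sftpd 5, against 32110 and 199169 in the lungs.

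Hopx and Abca3 were the 2 members with a steady level in hearts. Hopx was 61.0, 65.2 and 72.5 CPM in vehicle hearts and 73.7, 67.5 and 69.3 CPM with β-NMN, so the groups overlapped, and its log2 change was 0.08 ± 0.11. Abca3 was 32.4, 30.3 and 29.8 CPM in vehicle hearts and 26.2, 24.3 and 28.7 CPM with β-NMN. Every β-NMN heart was below every vehicle heart for Abca3, as it was for 11.5% of all genes tested there, and the log2 change was -0.23 ± 0.11 (edgeR adjusted p = 0.454).

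Reads of the surfactant genes were few in hearts, where the floor of 3 reads corresponds to 0.0438 to 0.110 CPM. Sftpb, at 0.259 to 1.08 CPM, was above that floor in every heart. Sftpc had 0 to 16 reads in a heart, Sftpb 14 to 70, Sftpa1 0 to 28, Aqp5 0 to 8, Sftpd and Lamp3 0 to 2. Vehicle heart 2 held the most reads of Sftpa1 (28), Napsa (125, against 9 to 36 in the others), Ager (70, against 10 to 34) and Aqp5 (8). Several summed lists were also highest in that heart. Mesothelial genes were at 1453 CPM against 94.8 to 236 CPM in the others. Club and secretory airway genes were at 455 against 75.6 to 241 CPM, and genes of epithelium in general at 13.8 against 3.71 to 8.12 CPM. Cardiac muscle, red blood cell, alveolar macrophage and other AT1 genes were lowest there. Mitochondrial genes took 12.9% of its counts, against 18.17% to 22.65% in the others. What these differences have to do with the member reads was not tested. Of the 5 members that passed the low-count filter in hearts, edgeR called 0, as it called 0% of the 16245 genes, and 0 had an unadjusted p below 0.05. DESeq2 and limma-voom called 0 members, and 262 and 3 genes in all.

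The effect of β-NMN did not differ by a passed test between the organs for any member. Of 10, edgeR called 0, as it did 0% of all genes, while Sftpa1 and Napsa had an unadjusted p below 0.05, as had 797 of 18318 genes tested. For Sftpa1 the lung change exceeded the heart change by 3.77 ± 1.24 on the log2 scale (edgeR adjusted p = 0.960). That value rested on 38 heart reads in all and ran from 1.88 without vehicle mouse 2 to 6.68 without β-NMN mouse 3. Sftpa1 did not pass the low-count filter in hearts and was in this fit only through the lungs, so no organ difference can be read from it. For Napsa the difference was 1.86 ± 0.83 (edgeR adjusted p = 0.960), and it ran from 0.53 without vehicle mouse 2, whose heart held the most Napsa reads, to 2.41 without vehicle mouse 3. DESeq2 called 14 genes in all in this comparison and 0 members.

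**Figure D4:**
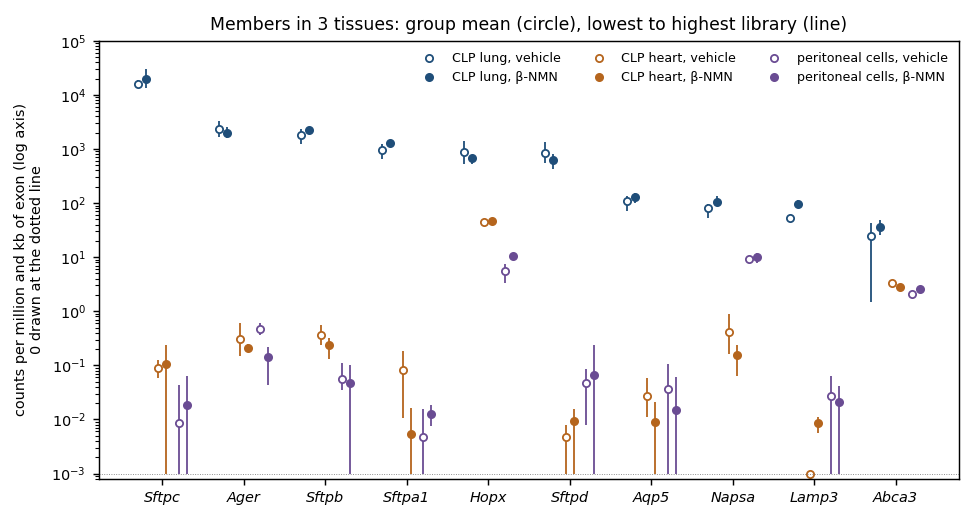
CPM per kilobase of exon (log axis) of the members in CLP lungs, CLP hearts and peritoneal cells, as group means (circles, open for vehicle) and the lowest to highest library (lines), with 0 drawn at the dotted line. Hopx is the highest member in hearts, and Hopx, Napsa and Abca3 stand above the rest in peritoneal cells.

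In the peritoneal cells of the TGC model, which hold no alveolar epithelium by origin, 4 members passed the low-count filter: Napsa, Hopx, Abca3 and Ager. Per kilobase, Napsa was the highest in vehicle cells, at 9.27 ± 0.99 CPM per kb (SD, n = 6), followed by Hopx at 5.50 ± 1.82, Abca3 at 2.09 ± 0.19 and Ager at 0.462 ± 0.0994. The remaining 6 had 0 to 26 reads in a library, with Sftpc at 0 in 8 of the 12 libraries, and were not tested.

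Hopx and Abca3 were higher with β-NMN and Ager was lower, and all 3 passed the threshold. This comparison moved much of the transcriptome, with 23.7% of the 14985 genes called higher and 27.9% called lower, so that 2 of 4 members higher and 1 of 4 lower is near what the background gives. Hopx was lowest 5.02, median 8.68 and highest 11.5 CPM in vehicle cells, and 14.8, 15.8 and 16.5 CPM with β-NMN. The groups did not overlap, as held in this direction for 12.6% of genes, and β-NMN cells varied less among themselves (SD 0.612 CPM) than vehicle cells (SD 2.76 CPM). The log2 change was 0.92 ± 0.18 (SE, n = 6 each, edgeR adjusted p = 0.000743), and the exact permutation p was 0.00216, the smallest that 6 against 6 allows.

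Ager, at a low level, was lowest 0.764, median 0.961 and highest 1.29 CPM in vehicle cells, and 0.0931, 0.352 and 0.461 CPM with β-NMN. These groups too were separate, as were those of 14.0% of genes in that direction. The log2 change was -1.63 ± 0.32 (edgeR adjusted p = 0.000603). Ager counts were 4 to 116 a library.

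Abca3 was lowest 17.5, median 19.8 and highest 22.2 CPM in vehicle cells, and 22.1, 24.8 and 27.7 CPM with β-NMN, so that the groups touched. Its log2 change of 0.33 ± 0.09 was the smallest of the 3 (edgeR adjusted p = 0.00565, exact permutation p = 0.00649). The call was lost without the low-count filter, where the log2 change of Abca3 was 0.35 with an edgeR adjusted p of 0.0615. Napsa was lowest 21.5, median 24.9 and highest 28.2 CPM in vehicle cells, and 20.6, 27.0 and 32.0 CPM with β-NMN, overlapping groups with a log2 change of 0.12 ± 0.11 (edgeR adjusted p = 0.345).

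**Figure D5:**
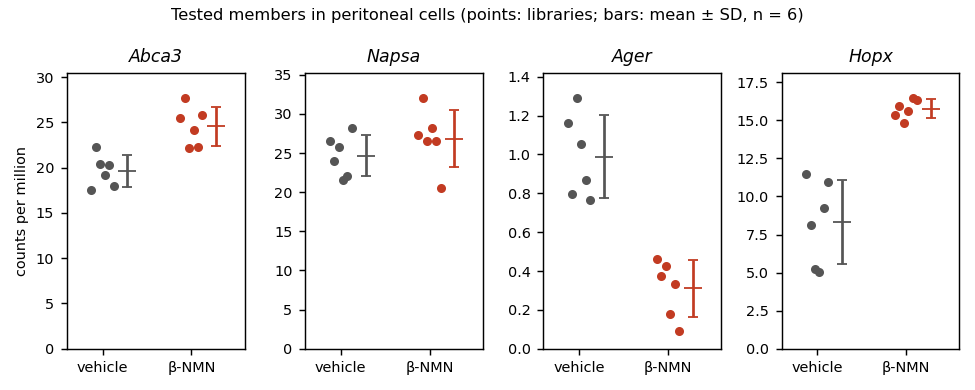
CPM of the 4 tested members in each peritoneal cell library (points), with group mean and SD (bars, n = 6), on axes from 0. Hopx groups are separate at 5.02 to 11.5 against 14.8 to 16.5 CPM, Ager groups are separate in the other direction, and Abca3 and Napsa groups overlap.

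Lamp3 had 0 to 22 reads a library in peritoneal cells, above the floor of 3 reads in 6 of 12 libraries, and did not pass the low-count filter. Most other listed genes of maturing dendritic cells fell there with β-NMN, but their summed level did not. The sum was 2269 to 2715 CPM in vehicle cells and 2090 to 3124 CPM with β-NMN, with Cd83, Cd40 and Relb the most abundant. Of 10 listed genes tested, 7 were called lower and 1 higher. Beside this count and those of the lists below, 27.9% of all 14985 genes were called lower and 23.7% higher. Ccr7 averaged 148 ± 11.4 CPM in vehicle cells and 27.8 ± 4.95 CPM with β-NMN (SD, n = 6 each), a log2 change of -2.41 ± 0.11. Fscn1, an actin-bundling protein, changed by -2.44 ± 0.12 and the calcium channel subunit Cacnb3 by -1.92 ± 0.12. Neutrophil genes summed to 551 to 1111 CPM in vehicle cells and 358 to 471 CPM with β-NMN. Of 9 tested, 8 were called lower and 1 higher, with a median log2 change of -3.49. Of 8 fibroblast and smooth muscle genes tested, 7 were called lower, with a median of -2.62, and of 6 red blood cell genes, 5 were called higher, with a median of 2.55. The part of these cells in the changes of Hopx, Abca3 and Ager was not tested.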

How the data were processed

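Gene counts of 12 CLP libraries and 12 peritoneal libraries were used as deposited. The authors selected poly(A) RNA, aligned reads to mm10 with STAR (2.7.3a in the submitters' processing notes) and counted reads per gene with featureCounts 2.0.0. The counts are raw. The annotation and strand setting were not given in the sources used here. Of counts between 1 and 49, 59.5% to 68.9% were even numbers in peritoneal libraries, against 39.5% to 44.5% in CLP libraries, for a reason not given there. The methods name both single-end and paired-end reads, and whether mates were counted separately is not stated, so a low count may stand for fewer fragments. No column lacked a sample. The label gives number 3 to 2 β-NMN hearts, and the one of the second mouse was taken as number 2.

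Per tissue, β-NMN was compared with vehicle in edgeR 4.0.16 (R 4.3.3) with filterByExpr, TMM scaling and the older (legacy) form of its quasi-likelihood test, adjusted by Benjamini-Hochberg over all genes tested and called below 0.05. CPM are TMM-scaled. SE was the log2 change divided by the root of F. Lungs and hearts were compared in 1 fit with all 12 CLP libraries. Alternatives used DESeq2 1.42.0, limma 3.58.1 (voom with quality weights), other scaling, no filter, blocks and libraries left out. Exact permutation tests used log2 CPM with a prior count of 2. The scripts were tested on simulated data. Counting error alone limits a library to a floor of 3 counts, 0.0267 to 0.337 CPM. The same replicate number did not pair vehicle with β-NMN samples (lung correlations -0.58, -0.32 and 0.36), but lung and heart of 1 number are from 1 mouse by the labels.

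Gene lengths and positions are from GENCODE M21 (GRCm38), matched by symbol for 54106 of 54658 rows. The members and lists were chosen with earlier results of these data known. The genes named are all 10 members, of each alveolar list the 3 with the smallest p in lungs at a mean of at least 1 CPM, of the dendritic list the 3 with the smallest p in peritoneal cells, and marker genes by level. Exceptions are named as such. A result of the fluid and ion transport list is not reported here.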

Additional observations from a re-analysis of the deposited data

How the results depend on the processing

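No member was called in lungs or hearts, or for the organ difference in the effect of β-NMN, under any alternative run, and all 10 were called higher in lungs than hearts under each. Only 5 of the 10 passed the low-count filter in hearts, so the count of 10 says little about stability for the others. In peritoneal cells 3 members were called under each run except without the low-count filter, which called 2 and left Abca3 at an edgeR adjusted p of 0.0615. The replicate block left these counts at 0 in lungs, 0 in hearts and 3 in peritoneal cells, and at 10 and 0 for the 2 organ comparisons with mice as blocks. Leaving out 1 library at a time gave a Lamp3 change in lungs of 0.74 to 1.0 and 0 to 5 genes called in hearts, the 5 without vehicle heart 2. Genes called in lungs were 0 in the main analysis, 9 with DESeq2, 7 with limma-voom and 1 without both vehicle lung 2 and β-NMN lung 1, an alternative chosen after seeing the data. In hearts they were 262 with DESeq2, 3 with limma-voom and 3 without the filter. For the organ difference they were 14 with DESeq2 and 2 without the filter. The cause was not tested.

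Signs of uncalled changes turned as follows, on the log2 scale. In lungs, leaving out 1 library at a time gave -0.71 to 0.0 for Sftpd, -0.04 to 1.1 for Abca3, -0.43 to 0.11 for Ager, -0.57 to 0.17 for Hopx, -2.09 to 0.43 for Elovl6 and -1.59 to 0.15 for Lpin1, each with the upper value (for Abca3 the lower) without vehicle lung 2. Sftpc was -0.12 without β-NMN lung 1 and 0.53 without β-NMN lung 3. Without both libraries Napsa was -0.06, Hopx 0.06, Aqp5 -0.13 and Elovl6 0.25. With limma-voom Hopx was 0.11, Elovl6 0.06 and Lpin1 0.02. In hearts Ager ran from -0.88 to 0.38, the latter without vehicle heart 2, and was 0.48 without both libraries and 0.25 with limma-voom, and Hopx was -0.05 on library totals. The organ differences ran from -0.31 to 0.64 for Ager and -0.67 to 0.08 for Hopx, turning without vehicle mouse 2, and for Sftpc from -0.89 to 1.44, with 0.12 without vehicle mouse 1. That of Aqp5 did not turn and ran from 0.12 to 2.83. With 3 animals a group, leaving out vehicle lung 2 moved most lung results, and why it stands apart was not tested.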

Other observations

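Other epithelial and supporting cells of the lung were read from lists of 10 genes each. Club and secretory airway genes had a median log2 change of -0.67 with β-NMN, with 8 of 10 below 0, or -0.19 without vehicle lung 2, and ciliated airway genes had a median of -0.27 both ways, with 8 of 10 below 0. The airway mucin gene Muc5b, named after its values were seen, was 197, 706 and 289 CPM in vehicle lungs and 49.5, 65.2 and 24.0 CPM with β-NMN, separate groups with a log2 change of -3.10 ± 0.61, or -2.40 ± 0.37 without vehicle lung 2. It was not called by edgeR (adjusted p = 0.969) but was by DESeq2 (adjusted p = 0.00172) and by limma-voom with quality weights (adjusted p = 0.0268).

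Genes of epithelium in general, which AT1, AT2 and airway cells share, had a median of -0.49, or -0.19 without vehicle lung 2, while the AT2 list had medians of 0.41 and 0.37. Endothelial genes had a median log2 change of 0.41, with 8 of 10 above 0, and 0.16 without vehicle lung 2. In 3 of these 10 every β-NMN lung lay above every vehicle lung, beside 4.47% of all genes. They were Kdr, Tie1 and Car4, named after their values were seen. Genes of fibroblasts and smooth muscle and of alveolar macrophages had medians of -0.02 and 0.03, or -0.15 and -0.07 without vehicle lung 2. In these 6 lists edgeR called 0 genes, and 3, all in the club and secretory list, had an unadjusted p below 0.05.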
